A study of Sus scrofa with 27 samples.

Results

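The 10 genes described here carry the nitric oxide and cGMP signal of blood vessels: NOS3, GUCY1A1, GUCY1B1, PDE5A, PRKG1, ITPR1, ITPR2, CACNB2, DDAH1 and DDAH2. They are the rows of a raw count table of 31908 pig genes that bear one of these names, and all 10 had at least 10 counts in some library. The members were chosen on the change at 6h. Of the 10, 6 (GUCY1A1, PDE5A, PRKG1, ITPR1, ITPR2 and CACNB2) stand in the study's own list of genes with a higher 6h fold change in one group, and the others were added as partners of the same pathway. The 6h values are therefore given as a description with no test, and tests were made at 12h. The tests of 12h against 0h within a group reuse the 0h libraries of that choice, so their p-values are not independent of it, and of the tests at 12h the one of PD against GS used libraries the choice did not.

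The lungs came from 9 Large-White pigs, used as non-heart-beating donors, and were kept in ex vivo lung perfusion (EVLP) for 12h. Lungs of both groups went through cold ischemia and were perfused with Steen solution that held methylprednisolone, cefuroxime and heparin. In the Gold Standard (GS) group (5 pigs, numbered 9, 17, 44, 55 and 77) part of the perfusate was exchanged at intervals. In the Pediatric Dialysis (PD) group (4 pigs, numbered 2, 3, 4 and 5) the circuit was dialysed through a pediatric membrane. A biopsy of whole lung was taken from every pig before perfusion (0h) and at 6h and 12h, which makes 27 bulk RNA-seq libraries. There was no lung kept for the same time without perfusion, so a change from 0h cannot be split into perfusion and elapsed time.

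Nitric oxide is made by endothelial cells and relaxes the smooth muscle of the vessel wall next to them. It binds soluble guanylate cyclase, a dimer of an alpha and a beta subunit, which then makes cGMP; cGMP activates a protein kinase that lowers the calcium available for contraction, and phosphodiesterase 5 degrades cGMP. In the lung this route keeps the resistance of the pulmonary circulation low, and drugs that inhibit phosphodiesterase 5 or stimulate the cyclase are used in pulmonary hypertension.

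The libraries of the 2 groups differed before any gene was considered. Counts on genes ranged from 26335584 to 67522703 per library in GS and from 14650700 to 21820935 in PD, with no overlap, so depth and group cannot be told apart. Genes with long and short exon models were also represented differently. For each library the median log2 deviation of genes in the upper quartile of exon length (above 6092 bases) was taken. That of genes in the lower quartile (below 2185 bases) was subtracted from it. The difference was 0.06 to 0.79 in every GS library and -1.83 to -0.02 in every PD library. By time, at 0h, 6h and 12h, its median was 0.51, 0.18 and 0.16 in GS and -0.62, -0.24 and -0.44 in PD. The GS libraries were not alike either. Those of pigs 9 and 17 had 26335584 to 41802541 counts and a difference of 0.58 to 0.79 over all times. Those of pigs 44, 55 and 77 had 51708598 to 67522703 counts, with a difference of 0.41 to 0.51 at 0h and 0.06 to 0.18 later. The PD pig 2 library at 12h and the PD pig 4 library at 0h stood apart from the rest, with that value at -1.83 and -1.03 and a median correlation with the other libraries of 0.83 and 0.82, against 0.87 to 0.93 in the other PD libraries. Of the 10 members, 7 were below and 1 was above all other PD libraries of the same time in the first of these, and 6 were below and 1 above in the second. The PD changes at 12h are given with and without them. The comparison of PD with GS at 12h holds only the first, and where its value is printed for a member it is given with and without PD pig 2. Lung markers were present in all libraries: summed alveolar type 2 markers were at 5137 to 89305 CPM and summed endothelial markers at 1374 to 3545 CPM. Fewer cells of a type and less RNA per cell cannot be told apart in bulk tissue.

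The source of the signal and its receptor are shown by the sequence before their starts, since NOS3 opens the pathway and the cyclase subunits GUCY1A1 and GUCY1B1 lie side by side on chromosome 8 and act as one enzyme. GUCY1A1 (ENSSSCG00000008866, chr8:44449232-44518135) and GUCY1B1 (ENSSSCG00000008870, chr8:44544179-44604704) are both on the plus strand with 26043 bases between them. NOS3 (ENSSSCG00000016450, chr18:6209156-6228938) is on the minus strand. The 250 bases before the most upstream start annotated for each gene, read from the RefSeq copy of Sscrofa11.1 and written 5′ to 3′ on the strand of the gene, are given here. Capitals mark a GC box (GGGCGG) or a CACCC box on either strand, the core letters bound by Sp and KLF factors.
NOS3, chr18:6228939-6229188, minus strand: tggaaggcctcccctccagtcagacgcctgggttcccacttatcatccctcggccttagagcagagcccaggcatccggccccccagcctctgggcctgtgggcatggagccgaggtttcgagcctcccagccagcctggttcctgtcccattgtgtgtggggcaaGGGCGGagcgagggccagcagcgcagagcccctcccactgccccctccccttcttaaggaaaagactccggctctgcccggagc
GUCY1A1, chr8:44448508-44448757, plus strand: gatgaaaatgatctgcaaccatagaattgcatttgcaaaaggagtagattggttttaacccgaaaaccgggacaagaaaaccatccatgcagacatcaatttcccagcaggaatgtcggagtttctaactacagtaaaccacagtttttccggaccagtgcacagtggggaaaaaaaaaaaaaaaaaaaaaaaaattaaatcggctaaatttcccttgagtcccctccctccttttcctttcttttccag
GUCY1B1, chr8:44543929-44544178, plus strand: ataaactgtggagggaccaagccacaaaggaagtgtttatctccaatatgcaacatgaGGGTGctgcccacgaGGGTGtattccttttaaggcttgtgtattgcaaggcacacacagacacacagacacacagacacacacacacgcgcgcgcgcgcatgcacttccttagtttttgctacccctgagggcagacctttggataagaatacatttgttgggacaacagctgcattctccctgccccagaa
The NOS3 window had 66.8% G and C, GUCY1B1 had 50.0% and GUCY1A1 had 39.2%, beside a median of 55.6% over the windows of 20273 protein-coding genes. The NOS3 window held 1 GC box, and 40.3% of all windows hold at least 1. The GUCY1B1 window held 2 CACCC boxes, both on the opposite strand, and 51.9% of all windows hold at least 1. Neither box was found in the GUCY1A1 window, and a TATAAA on either strand (in 10.9% of all windows) was found in none of the 3. These matches are a description of letters and not of bound sites. Whether the annotated starts are the true starts of the transcripts was not tested, so a window may lie inside a longer gene model.

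Before perfusion the members were expressed at very different levels. Per kilobase of exon model, the mean level at 0h in GS was 30.1 CPM for PDE5A, 12.6 for GUCY1B1, 10.2 for DDAH2, 8.94 for NOS3, 7.33 for ITPR1, 4.82 for ITPR2, 4.21 for DDAH1, 1.94 for GUCY1A1, 1.71 for PRKG1 and 0.24 for CACNB2. Within this order, 4 of 9 neighbouring pairs were further apart than the larger of their SDs between pigs: PDE5A and GUCY1B1, ITPR1 and ITPR2, DDAH1 and GUCY1A1, and PRKG1 and CACNB2. In PD the order was PDE5A at 33.1, DDAH2 at 32.9, GUCY1B1 at 21.0, NOS3 at 5.99, DDAH1 at 5.13, ITPR1 at 4.49, ITPR2 at 2.60, GUCY1A1 at 1.52, PRKG1 at 0.48 and CACNB2 at 0.029 CPM per kilobase. There, 4 of 9 neighbouring pairs were further apart than the larger SD: GUCY1B1 and NOS3, ITPR1 and ITPR2, ITPR2 and GUCY1A1, and PRKG1 and CACNB2. CACNB2, a regulatory subunit of voltage-gated calcium channels, was thus last in both groups. PDE5A, the enzyme that removes cGMP, was first in GS, whereas in PD its mean did not differ from that of DDAH2 beyond their spread. Exon lengths are those of RefSeq models and may differ from those the counts were made on.

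**Figure D1:**
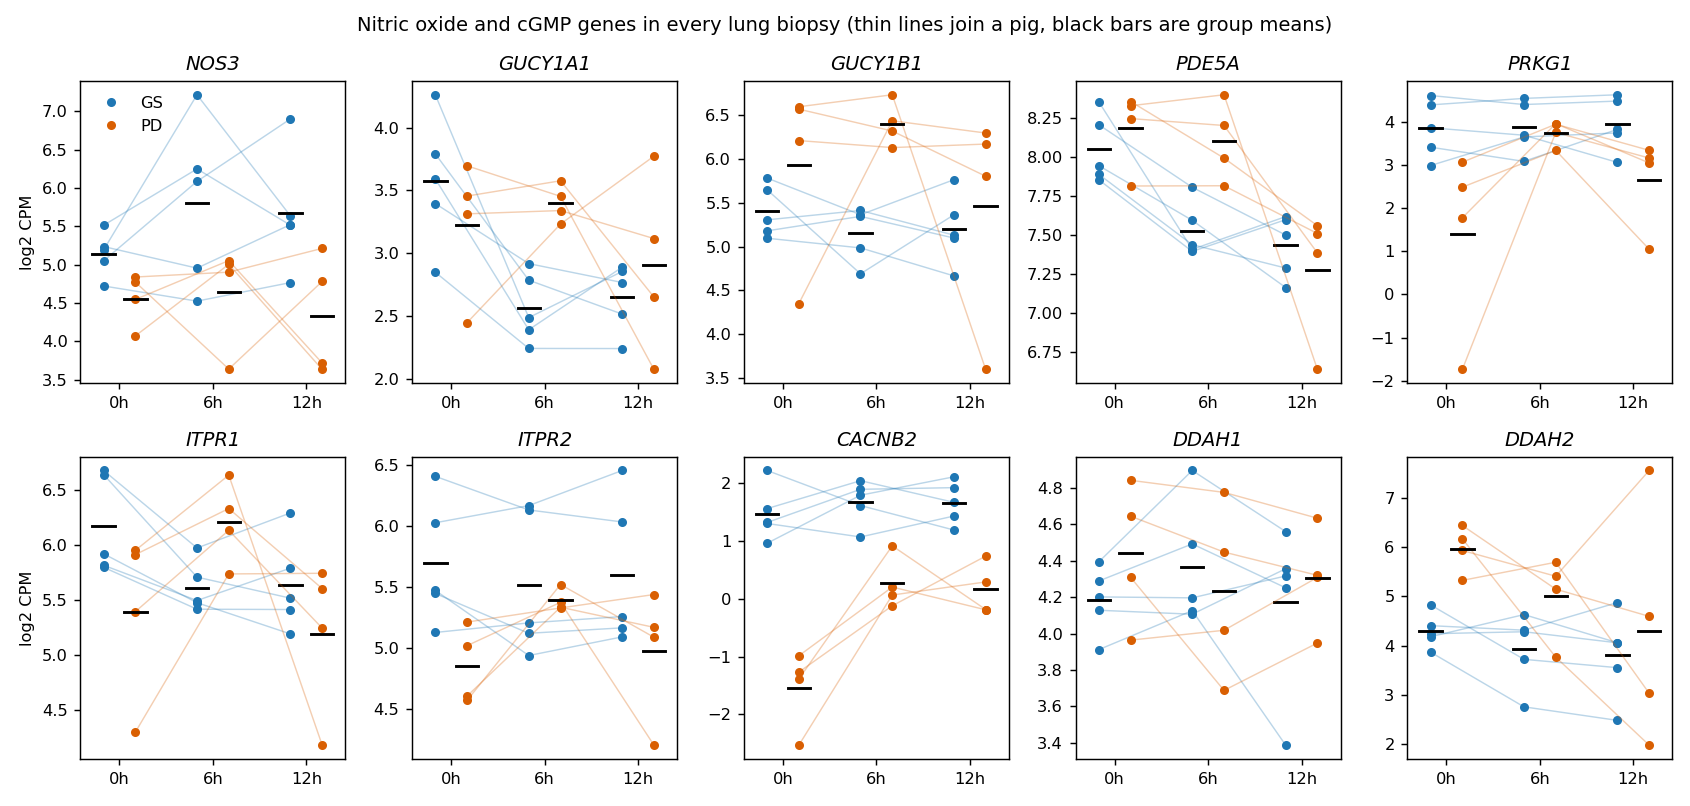
Each panel shows one member, with log2 CPM on the y axis and the EVLP time on the x axis; a point is a library of GS (blue) or PD (orange), thin lines join the libraries of a pig and black bars are group means. GUCY1A1 and PDE5A sit lower at 12h than at 0h in every GS pig, CACNB2 sits lower in every PD library than in any GS library, and the PD libraries that stand apart are the lowest PD points of GUCY1B1 and PRKG1.

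NOS3 is the endothelial nitric oxide synthase. In GS the NOS3 level in pigs 9, 17, 44, 55 and 77 was 26.4, 37.7, 45.7, 33.1 and 36.6 CPM at 0h, 23.0, 31.0, 76.1, 67.9 and 149 CPM at 6h, and 27.2, 46.0, 45.7, 119 and 49.7 CPM at 12h. In PD pigs 2, 3, 4 and 5 it was 27.4, 23.4, 16.8 and 28.6 CPM at 0h, 12.5, 33.2, 32.1 and 29.9 CPM at 6h, and 27.5, 13.1, 12.4 and 37.1 CPM at 12h. Pig 77 at 6h and pig 55 at 12h were high in GS, pig 2 at 6h was low in PD, and at 12h the groups overlapped. The log2 ratio of 6h to 0h was -0.20 and -0.28 in GS pigs 9 and 17. In pigs 44, 55 and 77, whose libraries differ from those in depth, it was 0.73, 1.04 and 2.02. A link of NOS3 with depth or exon length inside GS was not tested. The change in GS from 0h to 12h was 0.50 on the log2 scale (SE 0.34, adjusted p = 0.256, edgeR) and 0.15 (adjusted p = 0.763) without pig 55. In PD it was -0.16 (SE 0.44, adjusted p = 0.861), and -0.61 (adjusted p = 0.327) without the libraries that stand apart. At 12h NOS3 was at -1.33 in PD relative to GS (SE 0.49) with an adjusted p of 0.074, at -1.46 (adjusted p = 0.054) without PD pig 2, and at -1.06 (adjusted p = 0.142) once the trend with exon length was removed from each library. DESeq2 gave an adjusted p of 0.034 for the same difference, and all alternatives together ranged from 0.027 to 0.193.

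DDAH1 and DDAH2 code for enzymes that degrade asymmetric dimethylarginine, an inhibitor of nitric oxide synthases made in the body. DDAH1 (ENSSSCG00000040735, chr4:130483878-130617531) was at 10.4 to 29.8 CPM in GS and 12.9 to 28.7 CPM in PD over all times, and its adjusted p-values in the 12h tests ran from 0.810 to 0.968, and its PD change without the libraries that stand apart was -0.065 (adjusted p = 0.912). DDAH2 (ENSSSCG00000038514, chr7:23838993-23842516) has the shortest exon model of the members, 1975 bases. Its level in PD pigs 2, 3, 4 and 5 was 61.1, 40.1, 72.1 and 86.8 CPM at 0h and 188, 8.17, 3.93 and 24.1 CPM at 12h. Thus 3 PD pigs were lower at 12h than at 0h, and pig 2, whose 12h library stands apart, was higher.
The PD change was -1.55 on the log2 scale (SE 0.96, adjusted p = 0.351). Without both libraries that stand apart it was -2.06 (SE 0.39, adjusted p = 0.0019), and with single pigs left out it ran from -2.85 (without pig 2, adjusted p = 0.016) to -0.50 (without pig 4, adjusted p = 0.809). In GS pigs 9, 17, 44, 55 and 77 DDAH2 was at 14.6, 28.4, 18.9, 18.1 and 21.2 CPM at 0h and at 5.58, 11.7, 16.6, 16.7 and 29.3 CPM at 12h, a change of -0.55 (SE 0.26, adjusted p = 0.110) that was -0.81 (adjusted p = 0.036) without pig 77. The log2 ratio of 12h to 0h was -1.39 and -1.27 in pigs 9 and 17, and -0.18, -0.12 and 0.47 in pigs 44, 55 and 77. At 12h the PD to GS difference was 1.86 (SE 0.92, adjusted p = 0.172) and took the opposite sign, -0.40, without PD pig 2.

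GUCY1A1, the alpha subunit of soluble guanylate cyclase, was lower at 12h than at 0h in every GS pig. It was at 13.8, 19.1, 7.20, 10.5 and 12.04 CPM at 0h in pigs 9, 17, 44, 55 and 77, at 6.89, 5.60, 4.73, 7.55 and 5.24 CPM at 6h, and at 5.71, 7.23, 4.72, 6.80 and 7.40 CPM at 12h. Every GS pig was also lower at 6h, although pig 44 at 0h was within the 12h range. The 12h change was -0.97 on the log2 scale (SE 0.19), a 1.96-fold decrease with an adjusted p of 0.0022 (edgeR quasi-likelihood test, Benjamini-Hochberg), and the adjusted p ranged from 3.1e-05 to 0.038 over the alternatives. GUCY1A1 in PD pigs 2, 3, 4 and 5 was at 12.9, 10.96, 5.45 and 9.93 CPM at 0h, 10.9, 11.9, 9.39 and 10.1 CPM at 6h, and 4.21, 6.28, 13.6 and 8.67 CPM at 12h. The PD change at 12h was -0.28 (SE 0.45, adjusted p = 0.742), with 3 pigs lower and pig 4, whose 0h library stands apart, higher. Without both libraries that stand apart it was -0.30 (adjusted p = 0.620), and with single pigs left out it ran from -0.82 (without pig 4) to 0.11 (without pig 2). The difference between the 12h changes was 0.66 (SE 0.46, adjusted p = 0.921), 0.61 (adjusted p = 0.502) without both libraries, and 0.10 to 1.06 with single pigs left out, the lowest without PD pig 4 and the highest without PD pig 2.

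GUCY1B1, the beta subunit, had more counts than its neighbour in every library, and the pair is compared as a log2 difference within a library, which is not a difference per length. In GS the log2 CPM of GUCY1B1 minus that of GUCY1A1 was 1.83 ± 0.34 (SD, n = 5) at 0h, 2.59 ± 0.28 at 6h and 2.55 ± 0.41 at 12h. In PD it was 2.70 ± 0.55 (SD, n = 4) at 0h, 3.01 ± 0.28 at 6h and 2.56 ± 0.75 at 12h. The lowest PD values, 1.90 in pig 4 at 0h and 1.52 in pig 2 at 12h, are from the libraries that stand apart and lower those 2 means. The level of GUCY1B1 in GS pigs 9, 17, 44, 55 and 77 was 55.1, 50.2, 34.2, 39.6 and 36.3 CPM at 0h and 54.4, 41.2, 25.4, 35.0 and 34.3 CPM at 12h. All 5 values were lower at 12h, by a log2 change of -0.23 (SE 0.16, adjusted p = 0.266). In PD pigs 2, 3, 4 and 5 GUCY1B1 was at 97.0, 95.1, 20.4 and 74.2 CPM at 0h, 107, 80.0, 86.8 and 70.2 CPM at 6h, and 12.1, 55.9, 78.8 and 72.1 CPM at 12h. The values of 20.4 and 12.1 CPM belong to the libraries that stand apart, and the other 10 PD libraries were above every GS library. The PD change at 12h was -0.36 (SE 0.62, adjusted p = 0.764) and -0.30 (SE 0.30, adjusted p = 0.495) without those libraries. At 12h GUCY1B1 in PD was at 0.52 relative to GS (SE 0.46, adjusted p = 0.451), and at 0.86 (SE 0.28, adjusted p = 0.038) without PD pig 2. From 0h to 12h both subunits had the same sign of change in 9 of 9 pigs, whereas from 0h to 6h they did in 4 of 9.

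PDE5A (ENSSSCG00000009106, chr8:104270881-104420947), which hydrolyses cGMP and is the target of sildenafil, was also lower at 12h in every GS pig. In pigs 9, 17, 44, 55 and 77 it was at 296, 328, 237, 247 and 232 CPM at 0h and at 181, 197, 156, 143 and 194 CPM at 12h. The 2 times did not overlap. The change was -0.65 (SE 0.12, adjusted p = 0.0017, edgeR), with adjusted p-values of 8.1e-05 to 0.044 over the alternatives. In PD pigs 2, 3, 4 and 5 the level was 322, 304, 225 and 328 CPM at 0h, 338, 295, 226 and 255 CPM at 6h, and 99.5, 167, 182 and 189 CPM at 12h. PD levels at 12h were below those at 0h in 4 of 4 pigs without overlap. The PD change was -0.88 (SE 0.33), larger in size than that of GS but with an adjusted p of 0.124, and with all 27 libraries in one fit its adjusted p was 0.01. Without the libraries that stand apart it was -0.69 (SE 0.31, adjusted p = 0.109). The difference between the changes was -0.26 (SE 0.31, adjusted p = 0.944) with all libraries and -0.096 (SE 0.24, adjusted p = 0.890) without those, so the tests do not separate the groups for PDE5A.

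PRKG1 (ENSSSCG00000010429, chr14:97560785-98793318) codes for the cGMP-dependent protein kinase of smooth muscle. In PD pigs 2, 3, 4 and 5 it was at 5.57, 8.32, 0.29 and 3.40 CPM at 0h, 10.1, 15.3, 13.4 and 15.5 CPM at 6h, and 2.05, 10.1, 8.90 and 8.22 CPM at 12h. The 0.29 CPM of pig 4 at 0h rests on 5 counts. In GS it was at 7.89 to 24.3 CPM at 0h, 8.43 to 23.2 CPM at 6h and 8.30 to 24.6 CPM at 12h, with pigs 9 and 17 high at every time. The GS change at 12h was 0.07 (SE 0.20, adjusted p = 0.812) and the PD change was 0.84 (SE 0.75, adjusted p = 0.528), or 0.64 (SE 0.40, adjusted p = 0.259) without the libraries that stand apart. At 12h PD was at -1.17 relative to GS (SE 0.48, adjusted p = 0.104), at -0.86 (adjusted p = 0.103) without PD pig 2, and at -0.74 (adjusted p = 0.196) after removal of the exon length trend.

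ITPR1 and ITPR2 are the calcium release channels of the endoplasmic reticulum that open on inositol trisphosphate, and ITPR1 is held back by the cGMP-dependent kinase. ITPR1 (ENSSSCG00000023437, chr13:61068126-61398908) was at 102, 99.8, 55.6, 60.6 and 56.4 CPM at 0h in GS pigs 9, 17, 44, 55 and 77 and at 78.4, 45.8, 42.6, 36.6 and 55.4 CPM at 12h. It was lower at 12h in 5 of 5 GS pigs, with overlapping ranges. The change was -0.56 (SE 0.14, adjusted p = 0.0089, edgeR). This was a 1.47-fold decrease, under the 2-fold threshold of a call. The adjusted p was above 0.05 without pig 17 (-0.40, adjusted p = 0.053) and with the exon length trend removed (-0.39, adjusted p = 0.065). It was also above 0.05 with no replicate block (adjusted p = 0.141) and with all 27 libraries in one fit (-0.53, adjusted p = 0.227). ITPR1 in PD pigs 2, 3, 4 and 5 was at 61.9, 60.3, 19.7 and 42.1 CPM at 0h, 99.5, 80.6, 53.4 and 70.3 CPM at 6h, and 18.1, 48.7, 53.6 and 37.9 CPM at 12h, and the 12h change was -0.12 (SE 0.45, adjusted p = 0.897), or -0.023 (adjusted p = 0.968) without the libraries that stand apart. The 6h libraries were the highest of 3 of the 4 PD pigs, and in pig 4 the 6h and 12h values were nearly equal.
ITPR2 (ENSSSCG00000000555, chr5:46935932-47464125) had fitted changes at 12h of -0.14 in GS (SE 0.13, adjusted p = 0.442) and 0.14 in PD (SE 0.33, adjusted p = 0.840), the latter 0.34 (adjusted p = 0.451) without the libraries that stand apart. Its level at 12h was 34.1 to 87.6 CPM in GS and 18.5 to 43.4 CPM in PD, where the lowest was pig 2, whose 12h library stands apart.

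CACNB2 (ENSSSCG00000011040, chr10:44421666-44885424) had the lowest counts, 83 to 279 in GS and 3 to 36 in PD. In PD pigs 2, 3, 4 and 5 it was at 0.49, 0.37, 0.40 and 0.16 CPM at 0h (9, 7, 7 and 3 counts), 1.14, 1.87, 0.91 and 1.03 CPM at 6h, and 0.86, 0.87, 1.65 and 1.21 CPM at 12h (8, 16, 24 and 19 counts). All 4 PD pigs were higher at 6h and at 12h than at 0h, and neither later time overlapped with 0h. The PD change at 12h was 1.71 (SE 0.55), with an adjusted p of 0.084 by edgeR, 0.023 by DESeq2 and 0.037 without the libraries that stand apart, and 0.0087 to 0.468 over all alternatives, the highest without pig 5. In GS pigs 9, 17, 44, 55 and 77 CACNB2 was at 2.27, 3.78, 4.31, 2.69 and 3.17 CPM at 12h, above all PD libraries, and its change from 0h was 0.15 (SE 0.27, adjusted p = 0.682). At 12h CACNB2 was lower in PD than in GS by a log2 fold change of -1.48 (SE 0.41, adjusted p = 0.027), or 2.79-fold, and by -1.38 (adjusted p = 0.030) without PD pig 2. That call was lost with the exon length trend removed (-0.98, adjusted p = 0.134) and without GS pig 44, GS pig 77, PD pig 3 or PD pig 5 (adjusted p of 0.070, 0.052, 0.072 and 0.067). Over all fits with a single pig left out the difference itself ran from -1.70 to -1.35. The exon model of CACNB2 is the longest of the members, 12061 bases, and the groups stood further apart before perfusion, when the mean log2 CPM was 1.47 ± 0.47 (SD, n = 5) in GS and -1.54 ± 0.68 (SD, n = 4) in PD.

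**Figure D2:**
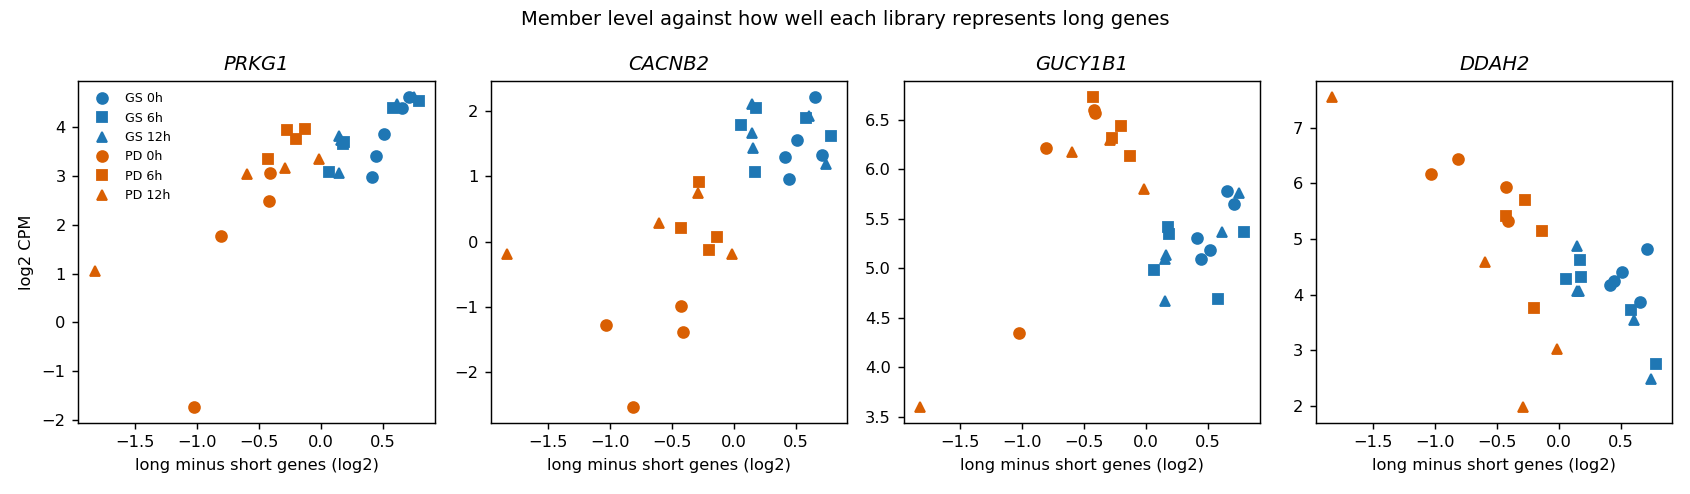
Each panel sets the log2 CPM of one member (y axis) against the log2 difference between long and short genes of the same library (x axis), with GS in blue, PD in orange and the EVLP time given by the symbol. All GS libraries lie right of 0 and all PD libraries left of it; the PD libraries at -1.83 and -1.03 hold the lowest 2 values of GUCY1B1 and PRKG1, and the one at -1.83 holds the highest value of DDAH2.

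At 6h, the time the members were chosen on, the log2 ratio to 0h was higher in every PD pig than in every GS pig for 4 of the 10 members, GUCY1A1, PRKG1, ITPR1 and CACNB2. Over all 17884 genes kept for levels this held for 1.83%, and nothing is read from the contrast because the rule used it. The 6h ratio of GUCY1A1 was -1.01 ± 0.52 (SD, n = 5) in GS and 0.17 ± 0.44 (SD, n = 4) in PD, and that of CACNB2 was 0.21 ± 0.60 in GS and 1.81 ± 0.75 in PD. ITPR1 was at -0.56 ± 0.26 in GS, lower in 5 of 5 pigs, and at 0.82 ± 0.44 in PD, higher in 4 of 4.
PRKG1 was at 0.02 ± 0.40 in GS and 2.35 ± 2.18 in PD, where pig 4 had 5.48 and the other pigs 0.85, 0.88 and 2.18. Without pig 4 the PD to GS difference of PRKG1 was 1.28 in place of 2.33, and that of GUCY1B1 was 0.18 in place of 0.72. ITPR2 was at -0.18 ± 0.28 in GS and 0.54 ± 0.37 in PD, and PDE5A at -0.52 ± 0.24 in GS and -0.08 ± 0.19 in PD. After removal of the exon length trend the PD to GS difference went from 1.38 to 1.01 for ITPR1, from 0.72 to 0.33 for ITPR2 and from 0.44 to 0.10 for PDE5A, and CACNB2 overlapped between the groups. NOS3, DDAH1 and DDAH2 had lower mean ratios in PD than in GS, with differences of -0.57, -0.39 and -0.60 and overlapping pigs. With single pigs left out these ran from -0.85 to -0.16, from -0.47 to -0.25 and from -1.04 to -0.12. DDAH1 did not overlap without PD pig 3 (-0.47), nor with the exon length trend removed (-0.50).
The 6h to 12h step, given without a test because it shares the 6h libraries, was downward in 4 of 4 PD pigs for PRKG1 (mean -1.10 ± 0.81) and PDE5A (-0.83 ± 0.66). It ran from -2.29 to -0.59 for PRKG1 and from -1.77 to -0.31 for PDE5A. Both lowest values belong to pig 2, whose 12h library stands apart, so these PD means lean on that library. In GS the same step was 0.07 ± 0.48 for PRKG1 and -0.09 ± 0.29 for PDE5A. All these ratios share the libraries of the earlier time.

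**Figure D3:**
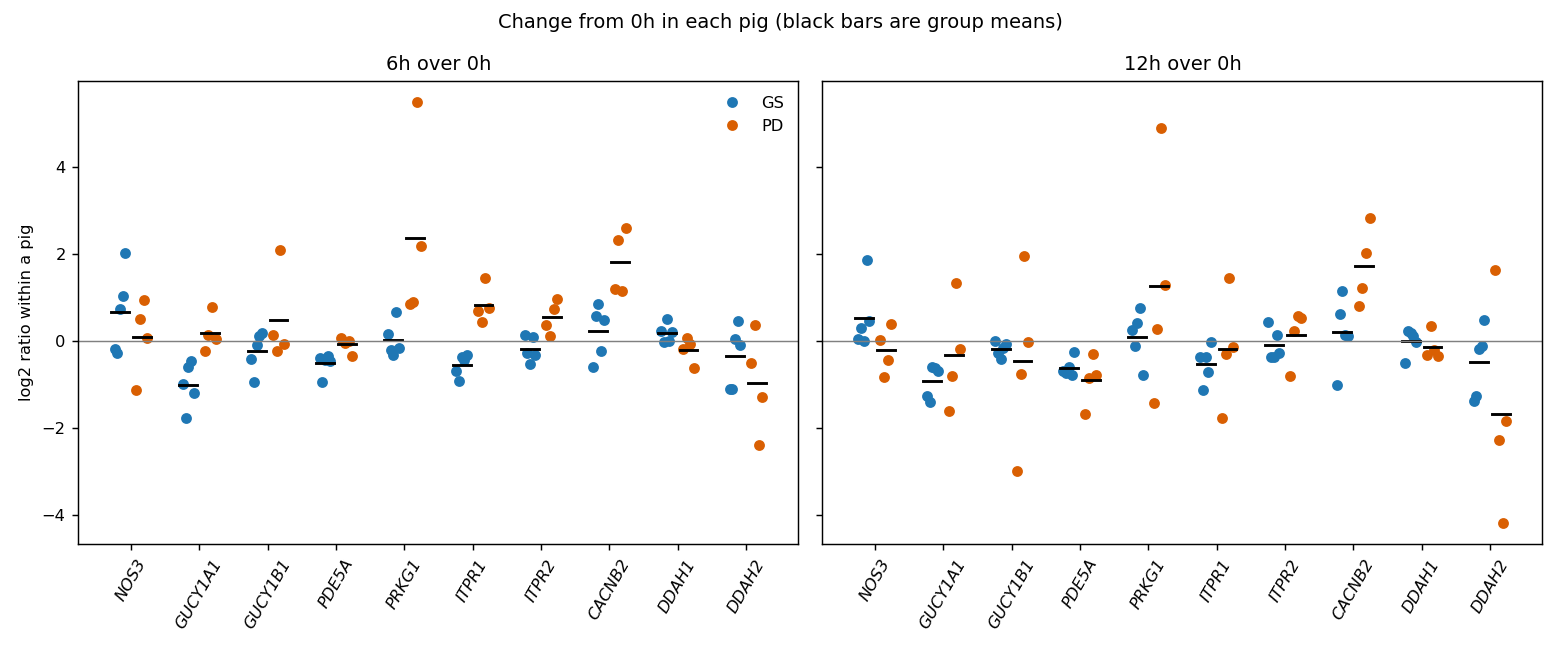
The log2 ratio of each pig to its own 0h biopsy is plotted for each member at 6h (left) and 12h (right), with GS in blue, PD in orange and black bars at the group means. GUCY1A1, PRKG1, ITPR1 and CACNB2 do not overlap between the groups at 6h, whereas every member overlaps at 12h.

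Counted over the members, none of 10 passed an adjusted p below 0.05 together with a 2-fold or larger change in GS between 0h and 12h, where 15.7% of 18594 genes did. Without the fold change threshold, 3 of 10 passed (GUCY1A1, PDE5A and ITPR1), against 38.4% of all genes. These 3 were lower at 12h, and 20.8% of all genes passed in that direction. All 3 are on the 6h list of the study, so this count rests on libraries that chose them. The unadjusted p was below 0.05 for 3 of 10 members and 48.5% of all genes, and DESeq2 called 0 with the fold change threshold and 3 without, against 16.4% and 43.2% of all genes. The median change of the 10 members in GS was -0.18, beside -0.08 over all genes.
In PD none of 10 passed with or without the fold change threshold, where 5.98% of 15545 genes did under either rule. The unadjusted p was below 0.05 for 2 of 10 (PDE5A and CACNB2), against 24.5% of all genes, DESeq2 called 1 (CACNB2), against 16.5%, and the median change was -0.15 against -0.05 over all genes. Without both libraries that stand apart, 2 of 10 passed with the threshold, CACNB2 and DDAH2, against 21.1% of 15651 genes. The numbers of pigs and the depth differ between the groups, so a member that passed in GS and not in PD is not a difference between them.
At 12h PD and GS differed in 1 of 10 members, CACNB2, with or without the threshold, against 19.3% of 16431 genes with it and 20.1% without it. CACNB2 was lower in PD, as were 9.14% of all genes. For the difference between the 12h changes, which uses the same 0h libraries as the contrast the members were chosen on, 0 of 10 members passed and 0% of 17884 genes did by edgeR under either rule. There the unadjusted p was below 0.05 for 1 of 10 (CACNB2, 1.54, SE 0.55, adjusted p = 0.740), against 5.98% of all genes. DESeq2 called 0, where 0.084% of all genes passed its adjusted p of 0.05. Without the libraries that stand apart the differences of the 10 members ran from -1.55 (DDAH2) to 1.78 (CACNB2), with adjusted p-values of 0.263 to 0.922.

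**Figure D4:**
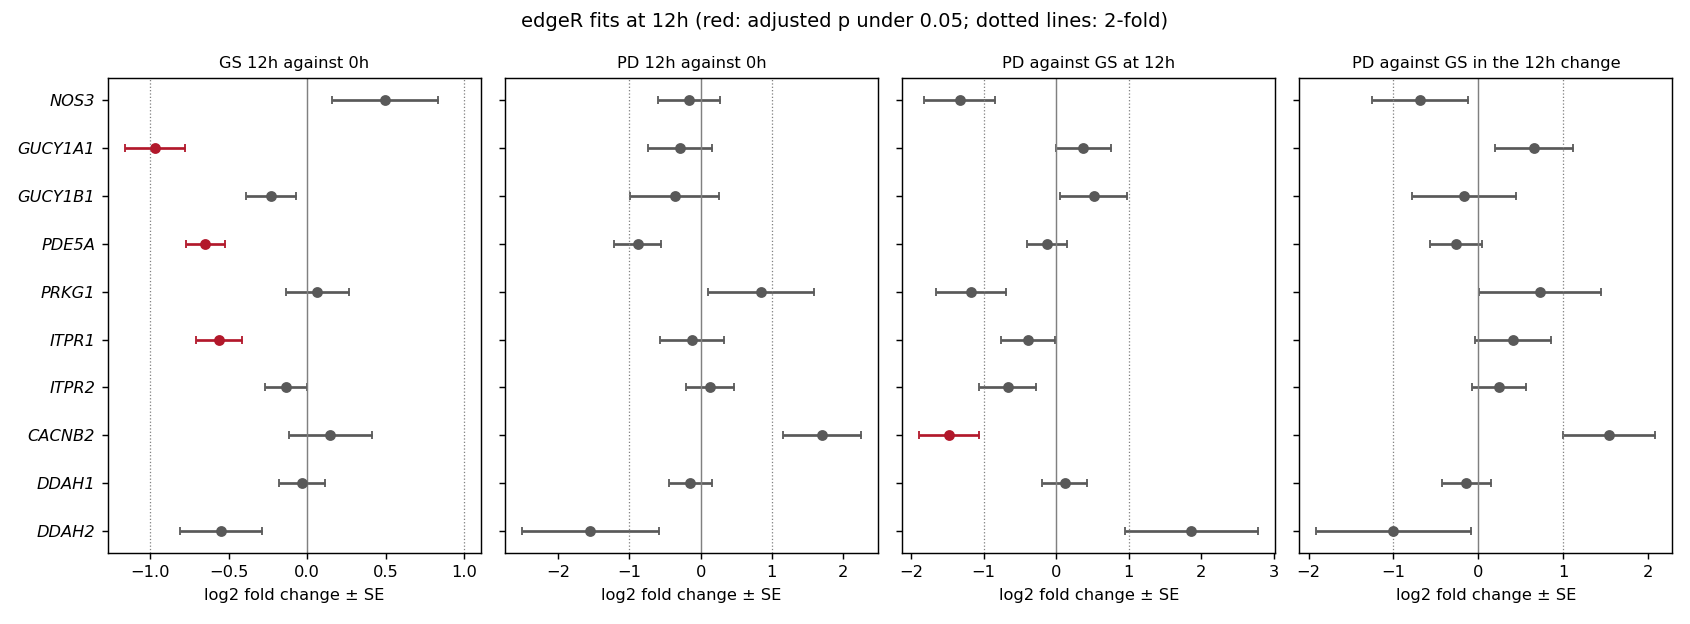
Points are fitted log2 fold changes of the members in the 4 comparisons at 12h with bars of 1 SE, on axes that differ between panels; red marks an adjusted p below 0.05 and dotted lines mark a 2-fold change. The red points are GUCY1A1 at -0.97, PDE5A at -0.65 and ITPR1 at -0.56 in GS, and CACNB2 at -1.48 in PD against GS.

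Other genes of the route were taken as a list of 55 symbols, of which 50 were in the table. In GS, 4 of 49 tested rose at 12h and 2 fell with at least a 2-fold change, where 6.99% of all genes tested rose and 8.66% fell. Without the fold change threshold 7 were higher and 13 lower, where 38.4% of all genes passed in either direction and 20.8% were lower. SLC7A1, the main carrier of arginine into cells, rose by 2.36 (SE 0.35, adjusted p = 0.00039), ARG1, an arginase that competes with nitric oxide synthase for arginine, by 1.99 (SE 0.35, adjusted p = 0.0011) and NPPC, C-type natriuretic peptide, by 1.93 (SE 0.34, adjusted p = 0.0011), each in 5 of 5 pigs. The fourth was ARG2, the mitochondrial arginase, at 1.31 (adjusted p = 0.0023), named after its value was seen. NOS1, the neuronal synthase, was at -1.97 (SE 0.71, adjusted p = 0.042) and CACNB4, another calcium channel subunit, at -1.92 (SE 0.27, adjusted p = 0.00031), and with the length trend removed NOS1 was at -1.79 (adjusted p = 0.061).
In PD, 3 of 47 rose at 12h and 0 fell, where 3.22% of all genes tested rose and 2.76% fell. The unadjusted p was below 0.05 for 10 that were higher and 9 that were lower, against 24.5% of all genes in either direction. DESeq2 called 8 higher and 0 lower, where 16.5% of all genes were called in either direction (1363 higher and 1197 lower of 15545). SLC7A1 rose by 3.10 (SE 0.49, adjusted p = 0.016), ARG1 by 2.61 (SE 0.58, adjusted p = 0.030) and NPPB, B-type natriuretic peptide, by 3.33 (SE 0.68, adjusted p = 0.025), each in 4 of 4 pigs. Without the libraries that stand apart these 3 genes kept their calls, at adjusted p-values of 0.00025, 0.00076 and 0.027. In that fit 6 of 48 rose and 6 fell, beside 21.1% of all genes called in either direction. With only the 0h and 12h libraries 0 of 45 were called, where 0.0268% of 14907 genes were. SLC7A1, ARG1 and NPPB were then at 3.09, 2.70 and 3.11 (adjusted p-values of 0.106, 0.111 and 0.11). With all 27 libraries in one fit 10 of 49 rose and 5 fell, beside 18.5% of all genes called in either direction. Without pig 3 or pig 5 edgeR called 0 genes of the whole table, with an unadjusted p below 0.05 for 2091 and 1878 genes. SLC7A1 and ARG1 were thus called in both groups, and for the difference between the 12h changes edgeR and DESeq2 called 0 genes of the list, with an unadjusted p below 0.05 for 6 of 49.
At 12h, 4 of 47 were higher and 6 lower in PD than in GS, where 10.2% of all genes tested were higher and 9.14% lower. RGS2, a target of the cGMP-dependent kinase that curbs receptors of vasoconstrictors, was higher by 2.42 (SE 0.46, adjusted p = 0.0051), ARG1 by 1.74 (SE 0.34, adjusted p = 0.0056), SPR, which makes the cofactor of the synthases, by 1.501 (SE 0.42, adjusted p = 0.027), and QDPR, which recycles it, by 1.495 (adjusted p = 0.026) and named after its value was seen. The pore subunit CACNA1C was at -2.15 (SE 0.40, adjusted p = 0.0043), and the phosphodiesterases PDE10A and PDE1B at -1.81 (SE 0.40, adjusted p = 0.0093) and -1.68 (SE 0.44, adjusted p = 0.020). Without PD pig 2, 4 were higher and 11 lower, beside 25.4% of all genes called in one direction or the other; RGS2 was then at 1.96, ARG1 at 1.85, QDPR at 1.02, CACNA1C at -2.15, PDE10A at -1.67 and PDE1B at -2.05, all called, and SPR at 0.996 (adjusted p = 0.042), under 2-fold. DESeq2 gave 5 higher and 10 lower, as did all 27 libraries in one fit, beside 25.5% and 26.2% of all genes called in either direction. With the exon length trend removed 2 were higher (RGS2 and ARG1) and 2 lower (CACNA1C and PDE10A), beside 16.4%.

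**Figure D5:**
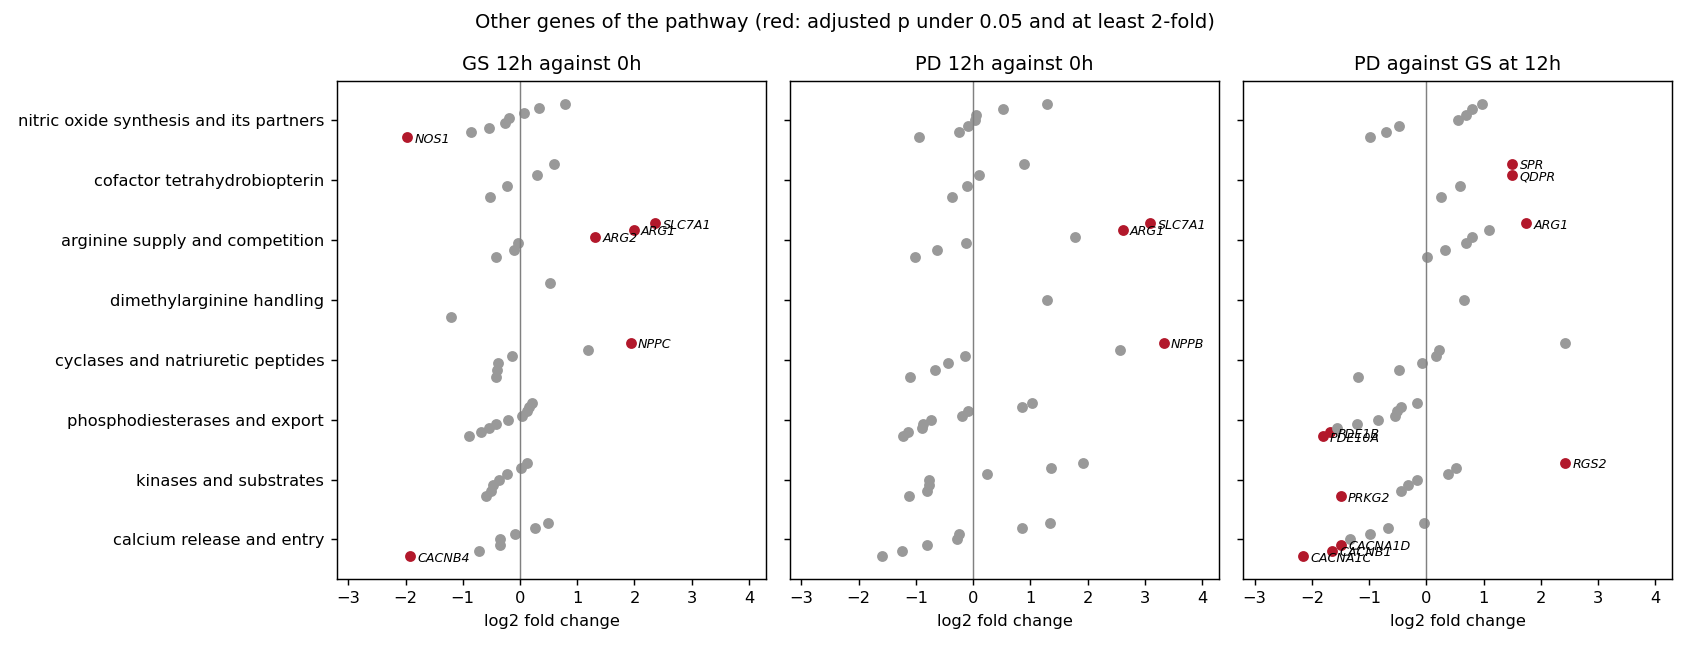
Each point is the fitted log2 fold change of one other gene of the pathway, grouped by role on the y axis, in the 12h comparisons within GS, within PD and between them; red marks an adjusted p below 0.05 with at least a 2-fold change. SLC7A1 and ARG1 are red on the right in both groups, and CACNA1C at -2.15 is the lowest red point of PD against GS.

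Markers of the cells that carry the pathway, and of other lung cells, also differed between the groups at 12h, with 3 of 50 tested higher and 11 lower in PD, beside the 10.2% and 9.14% of all genes. Levels differed before perfusion too: at 0h the mean log2 CPM in PD and GS was 15.1 and 11.8 for SFTPC, 6.205 and 8.17 for CD68 and 5.83 and 7.65 for PDGFRB, and for the difference between the 12h changes edgeR called 0 of 50 markers (unadjusted p below 0.05 for 3, and DESeq2 called 0). Of 8 endothelial markers 1 was higher and 1 lower in PD than in GS: CLDN5 was at 140 to 785 CPM in PD and 56.2 to 172 CPM in GS, and CDH5 at 53.1 to 411 CPM in PD and 612 to 1252 CPM in GS. Of 6 smooth muscle markers 2 were lower in PD and of 4 tested pericyte markers 2 were lower, and none of either list was higher. Outside these lists SFTPC (2.93) of alveolar type 2 cells and S100A8 (2.76) of neutrophils were higher in PD, and SFTPB (-1.82), the macrophage markers CD68 (-2.38) and CSF1R (-1.82), CSF3R (-2.12) of neutrophils and the lymphocyte markers CD79A (-1.69) and CD3D (-1.12) were lower. Without PD pig 2, 3 markers were higher and 14 lower, beside 25.4% of all genes called in either direction. These genes kept their calls, with SFTPC at 1.77 and S100A8 at 1.41. Summed smooth muscle markers at 12h were at 982 to 3777 CPM in PD and 965 to 2604 CPM in GS. Summed pericyte markers were at 130 to 207 CPM in PD and 231 to 524 CPM in GS at 0h, and at 89.4 to 208 CPM and 186 to 621 CPM at 12h, and summed endothelial markers at 12h were at 1540 to 2251 CPM in PD and 2019 to 3545 CPM in GS.
Within GS and within PD no marker of the endothelial, smooth muscle or pericyte lists passed an adjusted p below 0.05 together with a 2-fold change by 12h. Without the fold change threshold, 1 endothelial marker was higher at 12h in GS (PECAM1, 0.44) and 3 were lower, KDR at -0.96 (adjusted p = 0.0018), TEK at -0.62 (adjusted p = 0.0022) and EMCN at -0.48 (adjusted p = 0.046). Of the smooth muscle markers MYOCD was higher in GS (0.90, adjusted p = 0.0043) and MYH11 lower (-0.63, adjusted p = 0.026). In PD none passed, with EMCN at -1.10 (adjusted p = 0.069), MYOCD at 1.75 (adjusted p = 0.129) and DES at 1.01 (adjusted p = 0.284). Without the libraries that stand apart EMCN (-1.09, adjusted p = 0.025) and ACTA2 (-1.23, adjusted p = 0.025) were called lower and MYOCD (1.81, adjusted p = 0.042) higher in PD, and DES was at 0.050. Over all lists, 4 of 51 markers tested were called lower in GS by 12h, beside 8.66% of all genes. They were CD2 (-1.20) and MS4A1 (-1.62) of lymphocytes and CCDC78 (-1.76) and DNAH5 (-1.01) of ciliated cells. In PD 2 of 50 were called lower, CD3D (-1.58) and MS4A1 (-2.39), beside 2.76% of all genes. Without the libraries that stand apart these 2 were at -1.71 and -2.17. Without those libraries 2 of 50 markers of all lists were called higher and 7 lower in PD. These included TPPP3 (-1.42) and CCDC78 (-1.61) of ciliated cells, CSF1R (-1.13) of macrophages and PDGFRA (1.19) of fibroblasts. Of all genes, 21.1% were called in that fit (1643 higher and 1653 lower of 15651). The endothelial, smooth muscle and pericyte lists were detected in every library, although the pericyte marker HIGD1B was at 0 in some, and the part of all these markers in the values of GUCY1A1, PDE5A and ITPR1 in GS and of NOS3, PRKG1 and CACNB2 at 12h was not tested.

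The genes whose log2 CPM profile over the 27 libraries came closest to that of NOS3 were PLEKHG3, PAK4 and ENG, with root mean square differences of 0.38, 0.41 and 0.42 against a spread of NOS3 itself of 0.85. For PRKG1 they were FBN1, MAP2 and AKAP11, at 0.42, 0.46 and 0.46 against 1.28. The search covered 12510 named genes with a mean of at least 1 CPM, and the profiles share the depth and exon length differences between the libraries.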

How the data were processed

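Reads were trimmed with cutadapt 1.15 and aligned with TopHat2 2.0.14 to the Ensembl transcriptome of Sscrofa11.1, and counted with featureCounts of Subread 1.6.0, according to the submitters' processing notes and the study's methods. The values are the raw read counts per gene the authors deposited, 31908 genes in 27 libraries; strand and multi-mapping settings of the counter are not given in the sources used here, so overlapping antisense genes and close copies are uncertain. RNA was extracted by 1 of 2 kits, not given per library.

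Libraries were scaled by TMM in edgeR 4.0.16 (R 4.3.3, limma 3.58.1). Levels are CPM on TMM-scaled library sizes, with a prior count of 0.5 on the log2 scale. Within each group, 12h was compared with 0h in a fit of all 3 times with the pig as block; PD and GS were compared at 12h, and in a group by time interaction with the pig as block. Tests were two-sided robust quasi-likelihood F tests after filterByExpr, adjusted by Benjamini-Hochberg over all genes tested; all 10 members passed the filter. A call needed an adjusted p under 0.05 and at least a 2-fold change. Pairing came from the labels, since a number marks a pig. Residual correlations within a pig averaged 0.52 in GS (0.35 to 0.73) and 0.12 in PD (-0.215 to 0.42), so in PD the pairing rests on the labels. No 2 libraries agreed within sampling noise. Exon lengths came from RefSeq and covered 81.7% of the genes kept. The fits were tested on simulated data. The members, the pathway list and the marker lists were chosen with earlier results of these data known. All members are named; of the pathway list, up to 3 called genes in each direction by size that changed alike in every pig (or did not overlap), others as stated. The genes with profiles closest to GUCY1A1 are not reported here.

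Alternatives were DESeq2 1.42.0, its size factors, no low-count filter, fewer or all libraries in the fit, no replicate block, no fold threshold and each pig left out. Removal of the exon length trend and of the libraries that stand apart were added after seeing the data. The authors' tables of fold changes and p-values were not used, other than for which members their 6h list names.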

Additional observations from a re-analysis of the deposited data

Results flagged for a closer look

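Of 100 sets of 4 or 5 values examined (10 members by group and time, as levels and as ratios to 0h), 6 held a value far from the others, about the number chance gives at 1 in 20. The NOS3 level of PD pig 2 at 6h was 3.64 log2 CPM, with the other PD pigs at 4.90 to 5.05. The 12h ratio of NOS3 in GS pig 55 was 1.85, with the others at 0.00 to 0.44. The 6h ratio of GUCY1B1 in PD pig 4 was 2.09, with the others at -0.25 to 0.14; it is taken against a 0h library that stands apart. The 6h ratio of PDE5A in GS pig 17 was -0.95, with the others at -0.46 to -0.35. The PRKG1 level of PD pig 2 at 12h, the other library that stands apart, was 1.05 log2 CPM, with the others at 3.04 to 3.33. The DDAH1 level of GS pig 9 at 12h was 3.39 log2 CPM, with the others at 4.25 to 4.56.

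ITPR1 at 6h was lower than at 0h in every GS pig (mean -0.56) and higher in every PD pig (mean 0.82), a difference of 1.38. It was not tested, because the members were selected on this contrast.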

How the results depend on the processing

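Depth limits CACNB2 in PD, with 3 to 9 counts per library at 0h, and PD has 4 pigs of which 2 hold a library that stands apart. Among the fits of single members at 12h, 495 of 540 kept their direction and their side of an adjusted p of 0.05, 24 changed sign, 9 lost and 12 gained significance; where no value is given beside a change, its cause was not tested.

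With no replicate block, the number of members called with at least a 2-fold change was 1 in GS (GUCY1A1), 0 in PD and 0 for the difference of the 12h changes. Of all genes, 10.2%, 9.39% and 0% were called in these fits, or 16.6%, 9.57% and 0% with no fold threshold. ITPR1 in GS, already under 2-fold, then had an adjusted p of 0.141, and of 0.227 in a single fit to 27 libraries. DDAH2 turned to 0.12 in the difference with no replicate block. With no fold threshold 3 members passed in GS. DESeq2 called 1 in PD and 2 in PD against GS at 12h (16.5% and 25.5% of all genes), and a single fit to 27 libraries called 1 and 3 (18.5% and 26.2%). Without the libraries that stand apart 2 were called in PD (21.1% of all genes), and with the exon length trend removed 0 in PD against GS at 12h (16.4%). Leaving out single pigs gave 0 to 1 in GS, 0 to 2 in PD, 0 to 1 in PD against GS at 12h and 0 for the difference of the changes; 1 in GS arises where GUCY1A1 passes 2-fold without pig 44, 55 or 77, and 2 in PD without pig 2 (24.4% of all genes; 0% without pig 3 or 5). At 6h, 4 to 6 members did not overlap with single pigs left out. Leaving out PD pig 3 gave the 6, among them DDAH1, whose ratio was lower in PD (-0.47). The share of all genes was not counted in these settings, and nothing is read from them.

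These values changed sign. In GS, DDAH1 was 0.026 with DESeq2, 0.025 with its size factors, 0.012 with only 0h and 12h libraries, 0.0005 with all libraries and 0.059 with the length trend removed, and ITPR2 was 0.054 with the latter. In PD against GS at 12h, PDE5A was 0.34 and ITPR1 0.062 with the length trend removed. With single pigs left out, GS values ran from -0.079 to 0.28 for PRKG1, -0.089 to 0.50 for CACNB2 and -0.088 to 0.13 for DDAH1. PD values ran from -0.36 to 0.024 for NOS3, -0.82 to 0.11 for GUCY1A1, -0.998 to 0.23 for GUCY1B1 and -0.64 to 0.30 for ITPR1. At 12h PD against GS ran from -0.21 to 0.046 for PDE5A, -0.030 to 0.23 for DDAH1 and -0.40 to 2.25 for DDAH2. The difference of the changes ran from -0.82 to 0.44 for GUCY1B1, -0.13 to 0.85 for ITPR1 and -2.27 to 0.016 for DDAH2.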
